A study of Homo sapiens with 6 samples.

Results

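Macroautophagy is the route by which a cell wraps part of its cytoplasm, or a chosen cargo, in a double membrane and delivers it to the lysosome. The ULK1 kinase complex starts the process, the class III phosphatidylinositol 3-kinase complex marks the growing membrane with the lipid PI3P, and ubiquitin-like conjugation attaches proteins of the ATG8 family (LC3 and GABARAP) to that membrane. Cargo receptors such as SQSTM1 (p62) bind both ubiquitin-tagged cargo and ATG8 proteins and are themselves degraded with the cargo, so the level of a receptor's mRNA and that of its protein need not move together.

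The genes described here are 39 listed members of this machinery, grouped by step, out of 19775 genes measured. Each gene was read from the brightest probe set that names it alone, and every one of the 39 was measured. They were chosen by name and function, with earlier results of these data known. The data are 6 Affymetrix U133 Plus 2.0 arrays of DLD1, an established human colorectal adenocarcinoma line. In 3 arrays the cells had been exposed for 12 h to DMSO vehicle, and in 3 to 10 µM SAH-BCL9B, a hydrocarbon-stapled peptide modelled on the BCL9 helix that binds beta-catenin. The arrays of each group are called V1 to V3 (vehicle) and S1 to S3 (SAH-BCL9B), numbered as in the labels. The labels call the cultures of each group triplicates and name no genetic change in either group. The cells are 1 line, and no array of a control peptide was analysed here. The comparison asks how the transcripts of autophagy differ between peptide and vehicle.

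Values are the authors' log2 expression levels, so a difference of 1 is a doubling. Array medians lay between 6.58 and 6.62. None of the 39 members averaged below the median of all values, against 7514 of all 19775 genes. SAH-BCL9B 2 stood apart from the other arrays in the signal of ACTB control probes at the 3' end minus that at the 5' end, a sign of RNA quality. Its excess of 3' signal was the smallest, with 0.735 against 1.2 to 1.38 elsewhere. The fits were repeated without that array and with the ACTB difference as a covariate. Of 10 markers of colorectal epithelium none averaged below the median of all values, 1 rose (KRT8) and 1 fell (VIL1). Of 15 measured markers of fibroblasts, immune cells and endothelium 12 averaged below the median of all values and none passed the test or had an unadjusted p under 0.05 in limma.

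Promoter sequence is shown for the members with the largest changes, SQSTM1 and WIPI1, and for short stretches of others, because SQSTM1 is a known target of the oxidative stress factor NRF2 and of the lysosomal regulators TFEB and TFE3. RefSeq promoters (GRCh38.p14) were available for 34 of the 39 members, in 43 windows of the 250 bases before a transcription start. For SQSTM1 the window before the most downstream of its 3 listed starts is printed (chr5:179820655-179820904, plus strand), and for WIPI1 the window before its only listed start (chr17:68457497-68457746, minus strand). Capitals mark GC boxes (GGGCGG, on either strand), a motif added after the sequences were seen.
SQSTM1: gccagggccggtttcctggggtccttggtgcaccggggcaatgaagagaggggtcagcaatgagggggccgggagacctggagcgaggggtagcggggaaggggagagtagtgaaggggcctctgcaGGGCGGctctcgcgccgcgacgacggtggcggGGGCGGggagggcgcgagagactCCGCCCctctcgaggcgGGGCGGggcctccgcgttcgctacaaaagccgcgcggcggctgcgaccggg
WIPI1: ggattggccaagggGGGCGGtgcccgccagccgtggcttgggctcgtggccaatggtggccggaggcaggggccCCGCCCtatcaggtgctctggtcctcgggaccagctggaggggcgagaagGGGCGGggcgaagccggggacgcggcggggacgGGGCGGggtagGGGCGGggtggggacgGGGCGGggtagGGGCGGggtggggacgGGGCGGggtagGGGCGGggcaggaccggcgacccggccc

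The SQSTM1 window held 4 GC boxes and the WIPI1 window 9. A GC box was found in 28 of the 43 member windows (65.1%) and in 42.6% of 35116 windows of all RefSeq promoters. The full CLEAR motif of TFEB (both strands) was in none of the 43 windows and in 0.308% of all windows. Its inner E-box (CACGTG, which every full CLEAR motif holds) was in 2 member windows (4.65%), of ATG3 and ATG14, and in 6.34% of all. The antioxidant response element bound by NRF2 (TGACNNNGC, both strands) was in 4 member windows (9.30%) and in 10.9% of all windows. Neither the E-box nor this element was found in the SQSTM1 or WIPI1 windows. Sequence farther upstream than 250 bases, or after the start, was not searched. The absence therefore holds for these windows only, and elements elsewhere would not have been seen.

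The 4 members with an antioxidant response element were TOLLIP, ATG101, MAP1LC3B and CALCOCO2. They are printed with the element in capitals, since the measured changes of these genes differed in direction. The stretches lie at chr11:1309794-1309853 (minus strand), chr12:52069832-52069891 (plus), chr16:87392264-87392323 (plus) and chr17:48830880-48830939 (plus). In CALCOCO2 the element reads on the opposite strand.
TOLLIP: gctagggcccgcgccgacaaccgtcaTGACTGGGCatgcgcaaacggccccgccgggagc
ATG101: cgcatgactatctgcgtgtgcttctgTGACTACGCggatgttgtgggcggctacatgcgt
MAP1LC3B: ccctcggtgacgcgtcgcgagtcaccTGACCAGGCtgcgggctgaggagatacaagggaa
CALCOCO2: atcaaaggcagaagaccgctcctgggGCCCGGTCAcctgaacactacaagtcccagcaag

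Of the 39 autophagy genes 7 rose with SAH-BCL9B, 1 fell and 31 did not pass the test. Those that rose were the cargo receptor genes SQSTM1, OPTN and TOLLIP, the PI3P-binding protein gene WIPI1, the protease gene ATG4A, the ATG8 gene GABARAPL2 and the initiation subunit gene ATG101. The gene that fell was CALCOCO2, which encodes the cargo receptor NDP52. The 8 members called make 20.5% of the list, beside 6.93% of all 19775 genes (3.49% higher and 3.43% lower; limma, Benjamini-Hochberg adjusted p of 0.05 over all genes). Among the 12261 genes that, like all members, averaged above the median of all values, 10.5% were called and 5.34% were higher. That second background was added after the members' levels were seen. The RNA was of whole cultures, so fewer expressing cells and less RNA per cell cannot be told apart.

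Changes were small in most members. The median log2 change was 0.13, beside 0.02 over all genes and 0.03 over the genes above the median level. The change was positive in 29 members, beside 55.1% of all genes, and negative in 10. Of the members 2, SQSTM1 and WIPI1, moved by at least 1.5-fold (2.2% of all genes did). The SAH-BCL9B arrays lay wholly above the vehicle arrays in 16 members and wholly below in 1, which is 43.6% of the list beside 28.3% of all genes and 39.6% of those above the median level. The SAH-BCL9B arrays lay wholly above in 16.3% of all genes and in 23.1% of those above the median level, and wholly below in 12% of all genes.

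The mean of the 39 members, each taken relative to its own mean over the 6 arrays, was -0.09, -0.04 and -0.10 in the vehicle arrays and 0.13, 0.06 and 0.05 in the SAH-BCL9B arrays on the log2 scale. All 3 peptide arrays were therefore above all 3 vehicle arrays. The same quantity over all genes lay between -0.03 and 0.05. With S2 and V3 both left out, 5 members passed (4 higher and 1 lower) beside 6.04% of all genes, and with S2 alone left out 6 passed beside 7.21%. With the ACTB difference as a covariate 6 passed beside 7.52%. Leaving out V1 or S1 left 1 member, V3 or S3 left 2 and V2 left 3, beside 1.6% to 3.5% of all genes in those fits. SQSTM1 was among them each time.

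**Figure D1:**
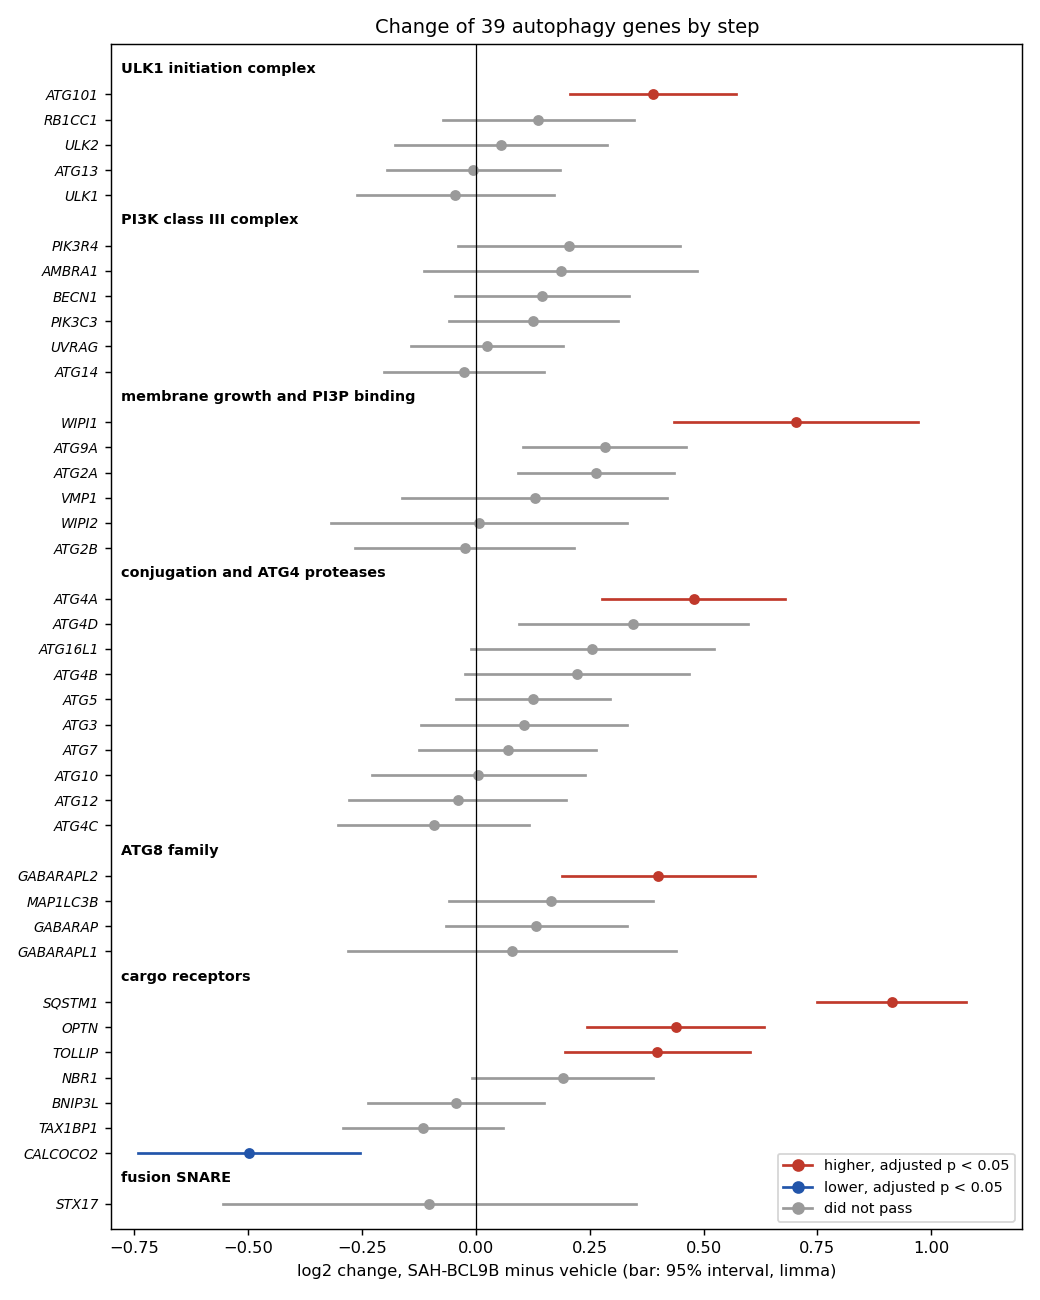
Log2 change (SAH-BCL9B minus vehicle, horizontal axis) of each of the 39 genes, grouped by step, with 95% intervals from limma over 3 arrays per group; red and blue mark an adjusted p under 0.05. SQSTM1 lies farthest right at 0.91 and CALCOCO2 farthest left at -0.50, both among the cargo receptors, and no member of the class III kinase complex is coloured.

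Cargo receptors moved in both directions: of 7 measured, 3 rose, 1 fell and 3 did not pass, with changes from -0.50 to 0.91. SQSTM1 encodes p62, which gathers ubiquitinated proteins into bodies and also binds the NRF2 inhibitor KEAP1. Its level was 11.72, 11.75 and 11.79 in the vehicle arrays and 12.63, 12.70 and 12.67 in the SAH-BCL9B arrays. The groups were far apart and the values within each lay close together. The change was 0.91 ± 0.07 (SE, n = 3 per group), or 1.88-fold (limma adjusted p = 0.00103). It passed in all 15 alternative analyses, with an adjusted p between 1.21e-06 and 0.0254.

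SQSTM1 is read by 5 probe sets, and these did not move together. The brightest gave the values above. On the second in brightness the vehicle arrays read 9.17, 9.23 and 9.30 and the SAH-BCL9B arrays 10.58, 10.68 and 10.62. That change was 1.40 ± 0.08 (SE), larger than on the brightest probe set, with an adjusted p of 0.00106 over all 41091 probe sets naming 1 gene. On the third the change was 0.61 (95% interval 0.09 to 1.14, adjusted p = 0.211), and the groups overlapped because S2, at 9.22, read below V1, at 9.31. On the fourth the value was -0.15 (-0.41 to 0.12, adjusted p = 0.601).

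The dimmest SQSTM1 probe set had vehicle values of 6.65, 7.05 and 6.64 and SAH-BCL9B values of 6.48, 6.03 and 6.40. These lay close to the median of all values, with no overlap and with the peptide arrays lower (-0.48, 95% interval -0.85 to -0.11, adjusted p = 0.162). Averaged over its 5 probe sets SQSTM1 changed by 0.46 (limma adjusted p = 0.0254, 1.21e-06 to 0.0254 over the alternatives). Which transcript each probe set detects was not tested.

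**Figure D2:**
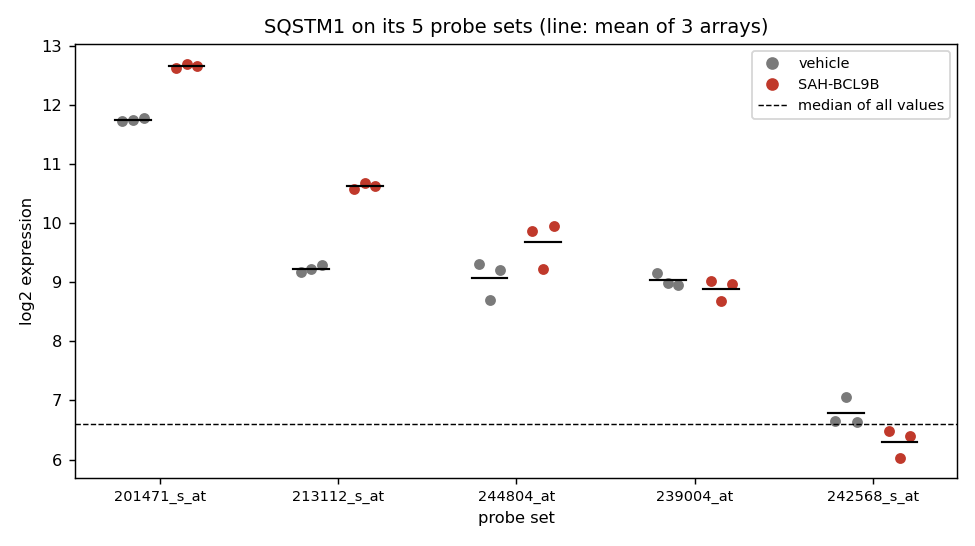
Log2 expression (vertical axis) of SQSTM1 in each of the 3 vehicle (grey) and 3 SAH-BCL9B (red) arrays on its 5 probe sets, ordered by brightness; black lines are group means and the dashed line is the median of all values, 6.61. The 2 brightest probe sets separate the groups upward by 0.91 and 1.40, the 2 dimmest read lower with SAH-BCL9B.

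OPTN encodes optineurin, a ubiquitin receptor for damaged mitochondria and bacteria. It read 10.57, 10.66 and 10.69 in vehicle and 11.14, 11.14 and 10.96 in SAH-BCL9B, without overlap. The change was 0.44 ± 0.08 (SE), and its other probe set gave 0.30. The limma adjusted p was 0.0214. Leaving out V1, V2, V3 or S1 ended the call (highest adjusted p = 0.112, 0.00213 to 0.112 over the alternatives), with changes from 0.41 to 0.50 when 1 array was left out.

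TOLLIP encodes a ubiquitin-binding adaptor of endosomes and of aggregate clearance. It read 9.38, 9.21 and 9.15 in vehicle and 9.67, 9.69 and 9.57 in SAH-BCL9B, so every peptide array was higher. The change was 0.40 ± 0.09 (SE, limma adjusted p = 0.0359), and all 4 probe sets were positive, from 0.11 to 0.49. Leaving out any single array ended the call (highest adjusted p = 0.126, 0.00916 to 0.126 over the alternatives), with changes from 0.35 to 0.47, as did leaving out V3 with S2 and the ACTB covariate.

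CALCOCO2, the receptor gene that fell, read 11.65, 11.71 and 11.65 in vehicle and 11.02, 11.39 and 11.10 in SAH-BCL9B. The vehicle values were close together and the peptide values wider apart, with SAH-BCL9B 2 nearest to vehicle. The change was -0.50 ± 0.11 (SE), or 1.41-fold lower (limma adjusted p = 0.0308). Its other 3 probe sets were negative but close to 0, from -0.07 to -0.04, and averaged over its 4 probe sets the gene had -0.17, short of the threshold (adjusted p = 0.228, 0.00273 to 0.228 over the alternatives). Leaving out V1, V2, V3, S1 or S3 also ended the call (highest 0.113), with changes from -0.61 to -0.42.

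The other receptors did not pass. TAX1BP1, the paralog of CALCOCO2 and likewise a ubiquitin receptor, had a value of -0.12 (95% interval -0.29 to 0.06, limma adjusted p = 0.458), and its other probe sets were negative too, at -0.24 and -0.29. NBR1, a receptor that works with p62, had 0.19 (-0.01 to 0.39, adjusted p = 0.254), with all 3 SAH-BCL9B arrays above vehicle. BNIP3L, a mitochondrial membrane receptor, had -0.04 (-0.24 to 0.15, adjusted p = 0.851), and its second probe set went the other way with 0.25.

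**Figure D3:**
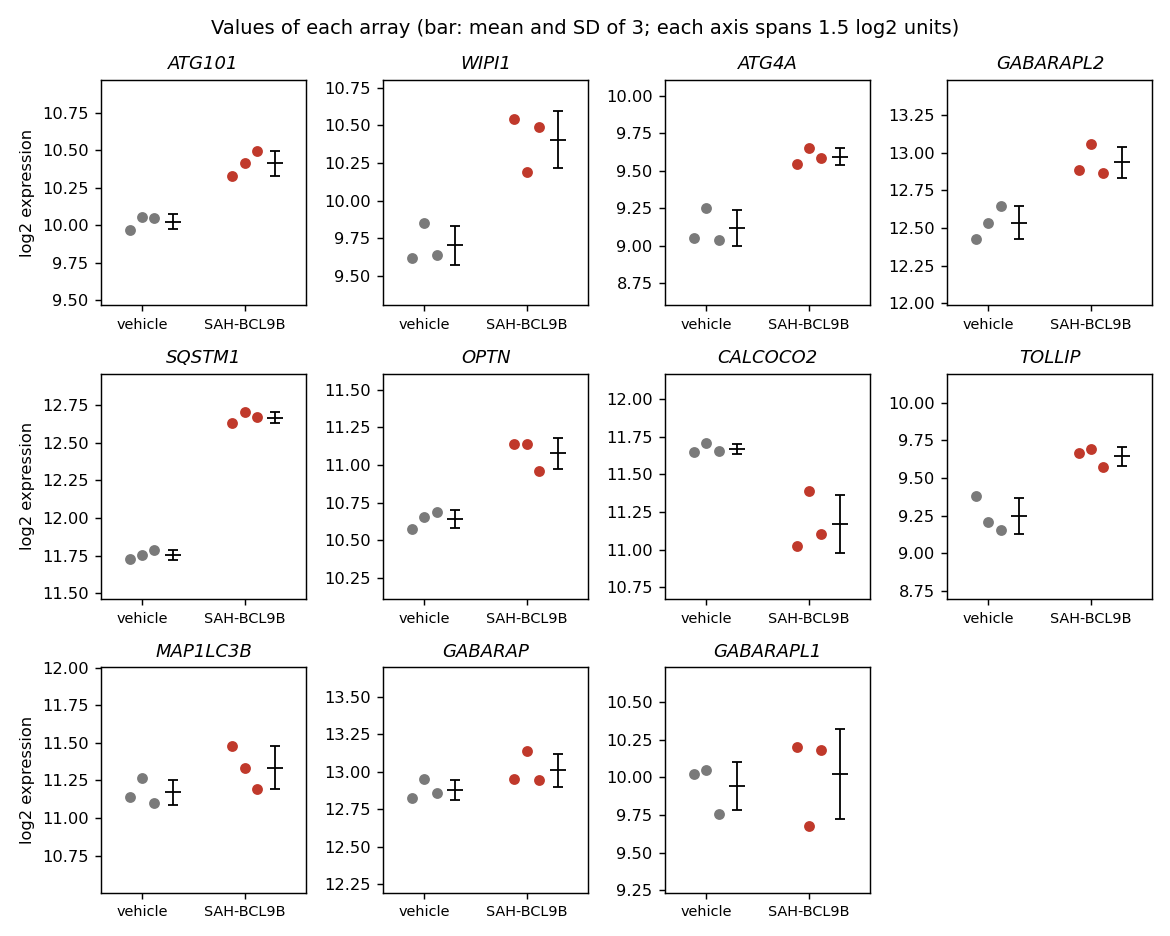
Log2 expression (vertical axis) of the 8 members that passed the test and of the 3 other ATG8-family genes in each of the 3 vehicle (grey) and 3 SAH-BCL9B (red) arrays, with mean and SD; every panel spans 1.5 log2 units. The groups are apart in the 8 members that passed, with CALCOCO2 alone downward, and overlap in MAP1LC3B, GABARAP and GABARAPL1.

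Among genes of membrane growth and PI3P binding 1 of 6 rose and 5 did not pass, with a median change of 0.20. WIPI1, a propeller protein that binds PI3P on the forming autophagosome, read 9.61, 9.85 and 9.64 in vehicle and 10.54, 10.19 and 10.49 in SAH-BCL9B. The groups did not overlap, and SAH-BCL9B 2 was the lowest of the peptide arrays. The change was 0.70 ± 0.12 (SE), or 1.63-fold (limma adjusted p = 0.0134), and the second probe set gave 0.73 (adjusted p = 0.0106 over all probe sets). The call ended when V1 (adjusted p = 0.0678), S1 (0.0559) or S3 (0.0614) was left out, with a range of 0.000813 to 0.0681 over the alternatives, and the change stayed between 0.64 and 0.81.

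Its paralog WIPI2, which recruits ATG16L1 to the membrane, had a value of 0.01 (95% interval -0.32 to 0.33, limma adjusted p = 0.988). WIPI2 values spread widely with the peptide, at 11.23, 10.64 and 10.93, and its other 4 probe sets gave -0.13 to 0.27. On its probe sets next in brightness, with 0.13 and 0.27, all peptide arrays were above vehicle. Neither passed (limma adjusted p = 0.52 and 0.217 over all probe sets). The dimmest ones, with 0.165 and -0.13, overlapped. ATG9A, a lipid scramblase carried by vesicles that seed the membrane, had 0.28 (0.10 to 0.46, adjusted p = 0.0734). ATG2A, which transfers lipids to the growing membrane, had 0.26 (0.09 to 0.44, adjusted p = 0.0784).

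In ATG9A and ATG2A all 3 peptide arrays were above all 3 vehicle arrays, and both genes passed with the filter on low values, the variance trend with robust fit and array weights (lowest adjusted p = 0.0285 and 0.029, highest over the alternatives 0.251 and 0.27). ATG2B, the paralog of ATG2A, read 9.90, 9.99 and 9.68 in vehicle and 9.94, 9.84 and 9.72 in SAH-BCL9B. These values overlapped (change -0.02, 95% interval -0.27 to 0.22, limma adjusted p = 0.942). The second ATG2B probe set gave 0.36 (0.05 to 0.67, adjusted p = 0.216 over all probe sets), with all 3 peptide arrays above vehicle. The dimmer ones gave -0.05 and -0.14. VMP1, a scramblase of the endoplasmic reticulum, had 0.13 (-0.16 to 0.42, adjusted p = 0.652).

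The ULK1 initiation complex showed 1 gene that rose among 5. ATG101, which stabilises ATG13 within the complex, read 9.97, 10.05 and 10.05 in vehicle and 10.33, 10.41 and 10.50 in SAH-BCL9B. The groups did not overlap, and the change was 0.39 ± 0.08 (SE, limma adjusted p = 0.0257) on its only probe set. Leaving out any single array except S2 ended the call, as did leaving out V3 with S2 (highest adjusted p = 0.131, 0.00451 to 0.131 over the alternatives). The change then ran from 0.35 to 0.43.

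The kinase genes themselves did not pass. ULK1 read 9.29, 9.29 and 9.45 in vehicle and 9.32, 9.41 and 9.17 in SAH-BCL9B. The values overlapped, with a change of -0.04 (95% interval -0.26 to 0.17, limma adjusted p = 0.865). ULK2 had 0.05, the regulatory subunit gene ATG13 -0.01 and the scaffold gene RB1CC1 (FIP200) 0.14, with adjusted p from 0.466 to 0.985. The upper bounds of their 95% intervals lay between 0.17 and 0.35.

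No gene of the class III phosphatidylinositol 3-kinase complex passed in limma's test, and none of the 6 had an unadjusted p under 0.05. The median change was 0.14, with 5 of 6 positive. PIK3R4, the regulatory kinase-like subunit gene (VPS15), read 10.53, 10.49 and 10.23 in vehicle and 10.73, 10.62 and 10.52 in SAH-BCL9B (change 0.20, 95% interval -0.04 to 0.45, limma adjusted p = 0.326). The groups overlapped only because S3 read just below V1. ATG14, which directs the complex to autophagosome formation, read 9.80, 9.85 and 9.90 in vehicle and 9.87, 9.76 and 9.84 in SAH-BCL9B (-0.03, -0.20 to 0.15, adjusted p = 0.909).

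BECN1 (Beclin 1) and the catalytic subunit gene PIK3C3 (VPS34) had 0.15 and 0.13, with all 3 peptide arrays above vehicle in each. UVRAG, the subunit of the endosomal form of the complex, had 0.02, and AMBRA1, a Beclin 1 partner, 0.19. PIK3C3 has 7 probe sets, of which 4 went the other way from the brightest and 5 were below the median of all values, with changes from -0.44 to 0.52 and none past the threshold.

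Among the conjugation genes 1 of 10 rose and 9 did not pass, with a median change of 0.12. ATG4A, a protease that trims ATG8 proteins and releases them from the membrane, read 9.05, 9.25 and 9.04 in vehicle and 9.55, 9.65 and 9.58 in SAH-BCL9B. The groups did not overlap, and the change was 0.48 ± 0.09 (SE, limma adjusted p = 0.0185) on 1 probe set. The call ended when V1, V3, S1, S3 or V3 with S2 were left out (highest adjusted p = 0.0964, 0.0031 to 0.0964 over the alternatives), with changes from 0.44 to 0.55.

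The 3 other ATG4 proteases did not pass. ATG4D had 0.35 (95% interval 0.10 to 0.60, limma adjusted p = 0.106) with no overlap of the groups, and ATG4B had 0.22 (-0.02 to 0.47, adjusted p = 0.282) with all 3 of its probe sets positive. ATG4C read 9.18, 9.42 and 9.24 in vehicle and 9.23, 9.10 and 9.23 in SAH-BCL9B. It was the lowest of the step with -0.09 (-0.30 to 0.12, adjusted p = 0.653), and its groups overlapped.

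Of the ubiquitin-like conjugation enzymes, the E1-like ATG7 had 0.07 and the E2-like ATG3 and ATG10 had 0.10 and 0.01. ATG12 had -0.04, its partner ATG5 0.13 and ATG16L1, which places the ATG12-ATG5 conjugate on the membrane, 0.26. None of these 6 passed (lowest adjusted p = 0.253 in limma's test, for ATG16L1), and the peptide arrays lay above vehicle in ATG5 and ATG16L1. The other probe sets of ATG5 gave 0.30 and -0.20 (limma adjusted p = 0.0763 and 0.432 over all probe sets).

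In the ATG8 family all 4 changes were positive and 1 passed. GABARAPL2 (GATE-16) read 12.43, 12.54 and 12.64 in vehicle and 12.89, 13.06 and 12.87 in SAH-BCL9B. The groups did not overlap, with a change of 0.40 ± 0.09 (SE, limma adjusted p = 0.0418). Leaving out any single array, a second quantile normalization or the ACTB covariate ended the call (highest adjusted p = 0.173, 0.00268 to 0.173 over the alternatives). The change ran from 0.34 to 0.46 when 1 array was left out.

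MAP1LC3B, the LC3 protein most used to count autophagosomes, read 11.14, 11.26 and 11.10 in vehicle and 11.48, 11.33 and 11.19 in SAH-BCL9B. The groups overlapped on this probe set, with a change of 0.17 (95% interval -0.06 to 0.39, limma adjusted p = 0.395). Its second probe set, nearly as bright, gave 0.43 ± 0.08 (SE) with no overlap and an adjusted p of 0.0385 over all probe sets. Averaged over both, MAP1LC3B had 0.30 (limma adjusted p = 0.0722, 0.0722 to 0.692 over the alternatives).

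GABARAP read 12.83, 12.95 and 12.86 in vehicle and 12.95, 13.14 and 12.94 in SAH-BCL9B (change 0.13, 95% interval -0.07 to 0.33, limma adjusted p = 0.452). GABARAPL1 read 10.02, 10.05 and 9.76 in vehicle and 10.21, 9.68 and 10.19 in SAH-BCL9B (0.08, -0.28 to 0.44, adjusted p = 0.852). In GABARAPL1 the lowest value of all 6 was that of S2, and the sign turned when V3, S1 or S3 was left out (-0.014, -0.012 and -0.002). The ATG8 genes are near relatives, so a probe set of 1 may also read another.

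STX17, the SNARE that equips a closed autophagosome for fusion with the lysosome, read 10.18, 9.85 and 10.07 in vehicle and 10.35, 9.52 and 9.92 in SAH-BCL9B. The peptide arrays held both the highest and the lowest value, so no change could be seen at the spread of this probe set (-0.10, 95% interval -0.55 to 0.35, limma adjusted p = 0.849). With S2 left out the value on it was 0.10. Its other probe sets gave 0.12, 0.06, 0.03 and -0.03, of which 3 went the other way from the brightest and none passed.

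Related genes of the list were also set against each other within each array, so that anything common to an array cancels. Of 8 paralog pairs, 4 had no overlap between groups. Taken singly, 28.3% of all genes and 39.6% of those above the median level had none, and no such share was computed for pairs. WIPI1, CALCOCO2 and GABARAPL2 had passed the test by themselves, so their pairs are not separate evidence. The log2 difference WIPI1 minus WIPI2 shifted by 0.70, from -1.23 ± 0.18 in vehicle to -0.53 ± 0.14 in SAH-BCL9B (SD, n = 3). CALCOCO2 minus TAX1BP1 shifted by -0.38, ATG4C minus ATG4D by -0.44 and GABARAPL2 minus GABARAP by 0.27. In an exact two-sided permutation test each of these 4 gave p = 0.1, the smallest that 3 against 3 arrays allow (adjusted p = 0.2 over the 8 pairs). The pairs ULK1 and ULK2, ATG2A and ATG2B, ATG4A and ATG4B, and GABARAPL1 and GABARAP overlapped, with shifts of -0.10, 0.29, 0.26 and -0.05.

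Over all probe sets, the 39 members are read by 104, and 27 members have more than 1. Tested singly, 8 probe sets of 6 members passed upward (WIPI1, ATG4A, MAP1LC3B, SQSTM1, OPTN and TOLLIP) and none downward (22 and 4 by limma's unadjusted p under 0.05). Of all probe sets 3.78% passed, 1.72% upward and 2.07% downward. By limma's unadjusted p under 0.05 the share of all genes was 21.4% in either direction. That share was not computed over all probe sets, so the 22 and 4 have no direct background. The brightest probe sets of CALCOCO2, GABARAPL2 and TOLLIP missed the threshold there (limma adjusted p = 0.0543, 0.0712 and 0.0635), and that of ATG101 lay just above it. The adjustment over all probe sets takes in more tests. In 15 of the 27 members at least 1 probe set went the other way from the brightest. Of the 104 probe sets 20 averaged below the median of all values.

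**Figure D4:**
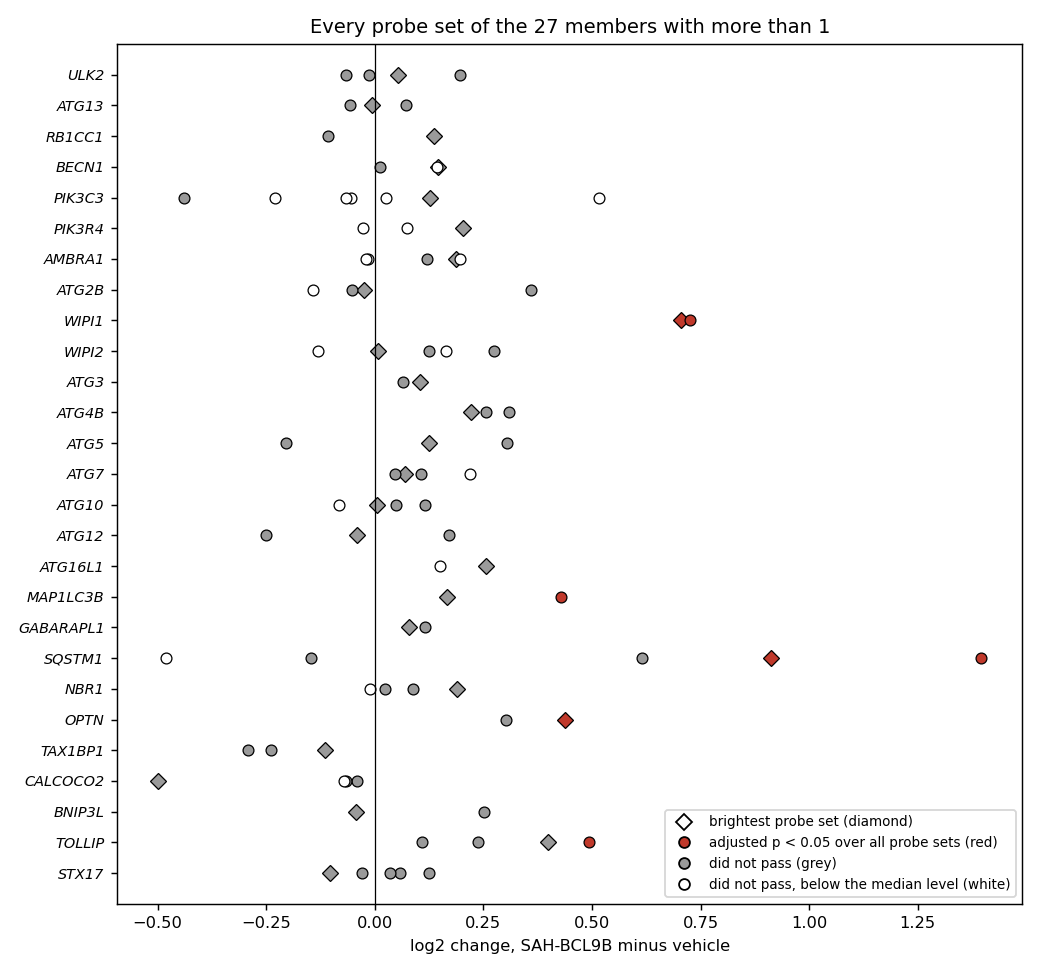
Log2 change (SAH-BCL9B minus vehicle, horizontal axis) of every probe set of the 27 members with more than 1; diamonds are the brightest, red marks an adjusted p under 0.05 over all probe sets and white a level below the median of all values. Both probe sets of WIPI1 lie near 0.7, those of SQSTM1 run from -0.48 to 1.40, and 1 of the 4 of CALCOCO2 stands apart at -0.50.

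Further genes of the pathway were read from 3 lists chosen by function. Of 38 further autophagy genes 6 rose and none fell (15.8%, beside 6.93% of all genes and 10.5% of those above the median level), with a median change of 0.11. At an unadjusted p under 0.05 in limma 12 were higher and 0 lower. In either direction 21.4% of all genes and 3718 of the 12261 genes above the median level had such a p. TP53INP2, a nuclear and autophagosomal cofactor, changed by 0.64 ± 0.10 (SE), and RUBCN (Rubicon), an inhibitor of the class III kinase complex and of autophagosome maturation, by 0.60 ± 0.09 (limma adjusted p = 0.0124 and 0.00839). VAMP8, YKT6, TECPR1 and VPS18, which act in tethering and fusion with the lysosome, changed by 0.46, 0.50, 0.44 and 0.42 (adjusted p = 0.0197, 0.0438, 0.0278 and 0.0324). RUBCN passed in each fit that left out 1 array (highest adjusted p = 0.0498). The call of TP53INP2 ended when V1 or V2 was left out, that of VAMP8 with V1, V2, S1 or S3 left out, and that of VPS18 with any array but S2 (highest adjusted p = 0.0668, 0.095 and 0.141). Leaving out any single array, or the ACTB covariate, ended the calls of YKT6 and TECPR1 (highest 0.135 and 0.131).

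Genes upstream of autophagy changed in both directions: 3 of 36 rose and 4 fell (19.4%, beside 6.93% of all genes and 10.5% of those above the median level). Those that fell were DDIT4, SESN2 and DEPTOR, all inhibitors of the growth kinase mTORC1, and MLST8, a subunit of that kinase complex. Their changes were -1.05 ± 0.08, -0.88 ± 0.08, -0.80 ± 0.09 and -0.38 ± 0.08 (SE, limma adjusted p = 0.00103, 0.00221, 0.00347 and 0.028). DDIT4 and SESN2 are also known targets of the amino acid stress factor ATF4. Those that rose were SESN3, a further sestrin, with 0.69, RRAGC, a Rag GTPase that brings mTORC1 to the lysosome, with 0.50, and FNIP1, a folliculin partner, with 0.41 (adjusted p = 0.0387, 0.0151 and 0.0361).

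DDIT4, SESN2 and DEPTOR passed in each fit that left out 1 array (highest limma adjusted p = 0.014, 0.0183 and 0.0272). Over all alternatives the change of DDIT4 ran from -1.093 to -1.001 and that of SESN2 from -1.051 to -0.838. DEPTOR varied more in size, from -0.875 to -0.37. Leaving out any array but S2 ended the calls of MLST8 and SESN3, V1, V3, S1 or S3 that of FNIP1, and V1, V3 or S3 that of RRAGC (highest 0.14, 0.134, 0.151 and 0.0783). SESN3, RRAGC and FNIP1 also fell short when a gene's probe sets were averaged. The transcription factors of lysosomal genes and the kinase of mTORC1 did not pass: TFEB had -0.11, TFE3 0.15, MITF -0.10 and MTOR, the kinase, 0.22 (adjusted p = 0.783, 0.426, 0.619 and 0.284).

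Of 21 measured lysosome genes 7 rose and none fell (33.3%), with a median change of 0.26. Of all genes 6.93% were called, with a median of 0.02. Of those above the median level, where all 21 lay, 10.5% were called, with a median of 0.03. By limma's unadjusted p under 0.05, 13 lysosome genes were higher and 0 lower. In either direction 21.4% of all genes and 3718 of the 12261 genes above the median level had such a p. NEU1, a sialidase, changed most with 0.92 ± 0.08 (SE, limma adjusted p = 0.00137), about as much as SQSTM1. GLA, ATP6AP1, ATP6V0D1, CTSA, NPC2 and CTSB changed by 0.40 to 0.48 (highest adjusted p = 0.0313). NEU1 passed in each fit that left out 1 array, and the other 6 missed the threshold in at least 3 of these 6 fits. Of the 7 lysosome genes 1 was left when V1 or S1 was left out, 2 with V2 or V3 left out and 5 with S3 left out. Those fits called 1.6% to 3.5% of all genes. With S2 left out 7 passed, beside 7.21% of all genes.

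**Figure D5:**
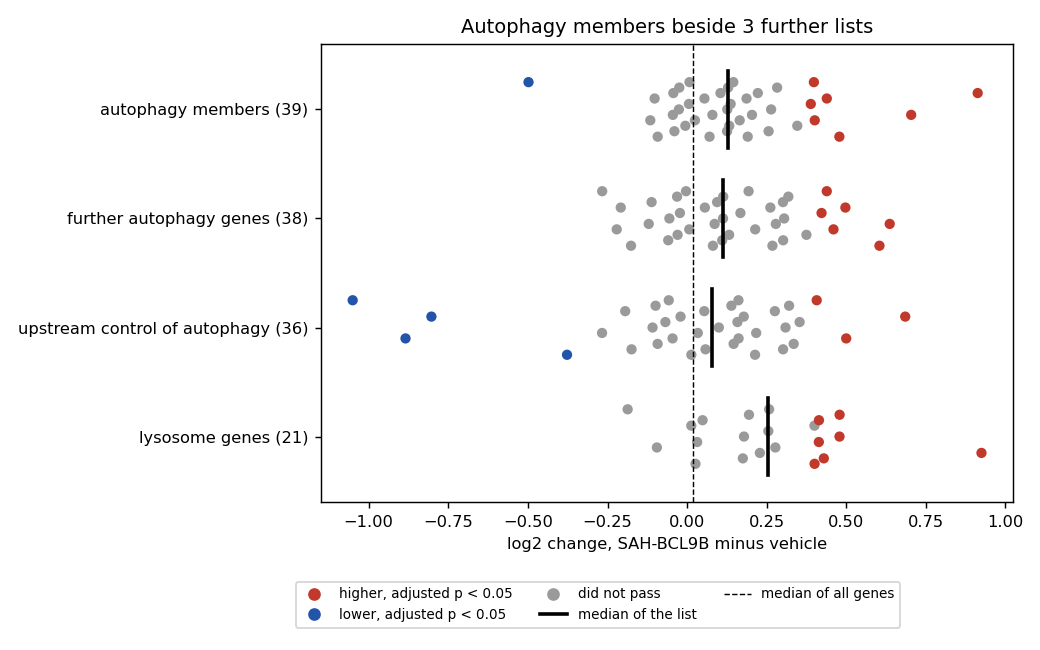
Log2 change (SAH-BCL9B minus vehicle, horizontal axis) of each gene of the 39 autophagy members and of 3 further lists; thick bars are list medians and the dashed line is the median of all genes, 0.02. The medians are 0.13, 0.11, 0.08 and 0.26 from top to bottom, and the genes farthest left belong to upstream control.

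Among steps with more than 1 gene, the median change ran from 0.05 for the initiation complex to 0.20 for membrane growth. Protein levels, ATG8 lipidation and the flux of cargo were not measured.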

How the data were processed

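RNA of 6 cultures (3 vehicle, 3 SAH-BCL9B) was hybridised to Affymetrix arrays. The authors deposited 1 table of log2 values for 54675 probe sets. RMA, run in affy, made them per the submitters' processing notes, which here carry no version. RMA brings all arrays to 1 distribution, which can hide a shift of most genes at once, and it compresses dim probe sets. With no detection call in the table, a level near the bottom of the scale cannot be told from background. The number of arrays limits the precision.

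Probe sets were named through GEO's platform annotation, updated by Entrez ID with RefSeq (GRCh38.p14): 41091 named 1 gene, 1801 several, 11721 none, and 62 were controls. Of the single-gene probe sets 41037 matched, with 0 symbols updated. Each of 19775 genes took its probe set with the highest mean over the 6 arrays. Groups and replicate numbers came from the titles. The test was that of limma 3.58.1 under R 4.3.3 (lmFit, eBayes, no covariates, no filter; prior degrees of freedom 3.94), Benjamini-Hochberg adjusted over all 19775 genes, with a threshold of 0.05. Every probe set was also fitted, adjusted over 41091. Errors are moderated SEs, intervals are 95%. Lists were described by counts and medians, with no set test. The fit was tested on simulated data. Plots used matplotlib 3.10.9 in Python 3.11.15.

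The members and lists were chosen with earlier results of these data known. By rule, per-array values are given for members past the threshold, SQSTM1, WIPI1, the ATG8 family and each step's largest rise and fall. In further lists, genes past the threshold are named, at most 6 by adjusted p, with TFEB, TFE3, MITF and MTOR in any case; a seventh was named in the list of upstream control and in that of lysosome genes, to complete the counts. Some genes of the further lists are not reported here. Alternatives were a fit blocked on replicate number, genes limited to those above the median of all values, the mean of a gene's probe sets, centring arrays on their medians, quantile normalization applied again, eBayes with trend and robust options, array weights, each array left out, vehicle 3 with SAH-BCL9B 2 left out, and the ACTB difference as covariate.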

Additional observations from a re-analysis of the deposited data

How the results depend on the processing

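The direction of the 8 called members was the same in all 15 alternatives, and SQSTM1 passed in each, with a log2 change of 0.459 to 0.931. The number of members past the threshold was 8 and fell to 1 (SQSTM1) with the replicate number as a block, beside 1.5% of all genes, to 5 without both vehicle 3 and SAH-BCL9B 2, and to between 1 and 6 with 1 array left out. It was 6 to 10 otherwise. The 10 came with the filter on low values, the variance trend with robust fit and array weights. Those fits called 18.5%, 12.4% and 11% of the genes tested, and the others of this range 4.94% to 7.52%. The change of WIPI1 stayed at 0.704 under the block but missed the threshold (limma adjusted p = 0.0681, 0.000813 to 0.0681 over the alternatives) and ran from 0.637 to 0.812 with 1 array left out. The deviations of same-numbered arrays from their group means had correlations of 0.239, -0.197 and -0.316, and those of vehicle 3 and SAH-BCL9B 2 had 0.417. With 3 arrays per group these correlations depend on each other. They cannot settle whether the numbers pair the samples. The members' median change was 0.092 to 0.16 with 1 array left out.

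Of further autophagy genes 0 passed under the block by limma's test (12 by unadjusted p under 0.05), 11 with the filter on low values, 11 with the variance trend and robust fit, 12 with array weights and 1 to 7 with 1 array left out. Of upstream genes 3 passed under the block, 4 with probe sets averaged, 11 with trend and robust fit and 3 to 7 with 1 array left out. Of lysosome genes the numbers were 1 under the block, 11 with the filter, 13 with trend and robust fit and 1 to 7 with 1 array left out. Calls over all genes moved too: 1.5% passed under the block and 4.94% with probe sets averaged. With the filter 18.5% of the 12261 genes kept passed, with trend and robust fit 12.4% and with array weights 11%. With 1 array left out the share ran from 1.6% to 7.21%.

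The sign turned in 14 members, none of them called. With probe sets averaged, ATG13 had 0.003, PIK3C3 -0.017, ATG2B 0.035, BNIP3L 0.104 and STX17 0.017. After a second quantile normalization WIPI2 had -0.001 and ATG10 -0.002. With array weights ATG14 had 0.011, ATG12 0.02 and STX17 0.005. Without both vehicle 3 and SAH-BCL9B 2, ULK2 had -0.021, ATG14 0.034, ATG12 0.06, BNIP3L 0.001 and STX17 0.12. With the ACTB covariate ATG12 had 0.078, BNIP3L 0.011 and STX17 0.093. With 1 array left out, UVRAG ran from -0.004 to 0.053, ATG10 from -0.054 to 0.095, ATG13 from -0.067 to 0.026, ATG2B from -0.111 to 0.042, WIPI2 from -0.141 to 0.155, ULK1 from -0.103 to 0.021, ULK2 from -0.026 to 0.151 and ATG14 from -0.052 to 0.007. GABARAPL1 ran from -0.014 to 0.253, VMP1 from -0.006 to 0.199, ATG12 from -0.114 to 0.066, BNIP3L from -0.1 to 0.014 and STX17 from -0.314 to 0.103. Apart from the array or model changed in each, the cause was not tested.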
